A study of Homo sapiens with 12 samples.

Results

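The comparison described here set HK2 cells that overexpressed FGF9 in high glucose against HK2 cells in normal glucose, and asked for each gene whether the overexpressing cells stood at the level of the normal glucose cells or away from it. HK2 is an immortalised human cell line from the proximal tubule of the kidney. The 3 NG libraries came from cells in 5.5 mM glucose that had received a control vector, and the 3 HG + OE-FGF9 libraries from cells in 50 mM glucose that had received a vector for FGF9. Glucose and vector therefore changed together between these groups, and their parts in a difference cannot be told apart. The 3 HG libraries, from cells in 50 mM glucose with no vector named for them, are given beside them as a description. A further 3 libraries of the series came from cells treated with an siRNA against FGF9. They entered only the shared estimate of the spread and the alternative scalings described below, which were computed over all 12 libraries. The labels, the treatment protocol and the methods give this glucose, whereas the study's text elsewhere describes mannitol in the NG medium and names another kind of viral vector. Of 62703 gene identifiers in the series, 14024 had a TPM (the length-scaled share of a library's transcripts that belongs to a gene, set to a fixed sum) of at least 1 in at least 3 of the 6 libraries and make up the comparison.

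Fibroblast growth factor 9 (FGF9) is a secreted ligand that binds FGF receptors together with heparan sulfate, and the receptors signal through docking proteins such as FRS2 to the RAS-ERK cascade. That cascade switches on immediate early transcription factors within minutes and, more slowly, its own inhibitors such as the Sprouty proteins and the phosphatase DUSP6. In the diabetic kidney, proximal tubule cells are exposed to high glucose and can lose epithelial features, take on mesenchymal ones and lay down matrix, a change in which TGF-beta, integrins, hypoxia-inducible factors and collagen cross-linking enzymes are known to take part.

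Libraries and annotation set limits on all that follows. Every library sums to 1000000 TPM, so that the depth is unknown, and between 13008 and 13949 genes of a library had a TPM of at least 1 in these 6 libraries. HG + OE-FGF9 libraries 1 and 2 were nearly identical (Pearson's r of 0.992 on the log2 scale over the genes tested), as were NG libraries 2 and 3 (r of 0.991). HG + OE-FGF9 library 3 stood apart from libraries 1 and 2 (r of 0.962 and 0.961) and lay nearest to the NG mean of the 3 libraries for 5264 of the 5802 differentially expressed genes. Sampling noise cannot be tested without counts, so the counts are also given with each near-identical pair averaged into 1 library. Nothing in the labels says that the libraries of a group came from separate cultures, so that the p-values measure only the spread between these libraries, which may be technical. Epithelial keratins were present, with KRT8 at 595, 525 and 527 TPM in NG, but several defining genes of the proximal tubule were at or near 0: the highest TPM in these 6 libraries was 0.02 for LRP2, 0.02 for CUBN and 0.15 for SLC34A1. Markers of other cells were in part expressed. None of 6 endothelial and none of 8 loop and distal nephron markers reached the TPM minimum, and their sums were at most 0.15 and 1.22 TPM in any of these 6 libraries. Of 6 leukocyte markers 2 did, CD14 and the lysosomal CD68, and the list summed to 129 to 138 TPM in NG and 160.3 to 165 in HG + OE-FGF9, while PTPRC reached at most 0.07. Of 6 fibroblast markers 2 did, COL1A1 and LUM, with sums of 62.3 to 89.2 TPM in NG and 11.5 to 22.4 in HG + OE-FGF9. Both were lower on the deposited TPM, but 0 of them under all 5 scalings described below. PDGFRA was listed at 0 in all 6 libraries. Of 5 podocyte markers 2 did, PODXL and SYNPO, with sums of 26.7 to 32.5 TPM in NG and 9.43 to 11.3 in HG + OE-FGF9, while WT1 was listed at 0. PODXL and SYNPO were likewise lower on the deposited TPM, but 0 of them under all 5 scalings. The part of these levels in the results was not tested.

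Genes away from NG level were mostly below it. A gene was called higher or lower at a log2 fold change, on the log2(TPM + 1) scale, of at least 1 in size with an unadjusted p under 0.01 in limma. It was called at NG level when the whole 95% confidence interval of its log2 fold change lay between -1 and 1, that is within a 2-fold difference. By this rule 4793 genes (34.2%) lay below NG in the HG + OE-FGF9 libraries, 1009 (7.19%) were higher, 4424 (31.5%) stood at NG level and 3798 (27.1%) were unresolved. All 5802 called genes also had a Benjamini-Hochberg adjusted p under 0.05. With the near-identical libraries averaged, 4065 genes were lower, 854 higher and 3019 at NG level, and without HG + OE-FGF9 library 3 these counts were 5361, 1149 and 3726. In the plot of group means the lower genes form a broad band under the diagonal over the whole range of levels, whereas the higher genes are fewer.

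**Figure D1:**
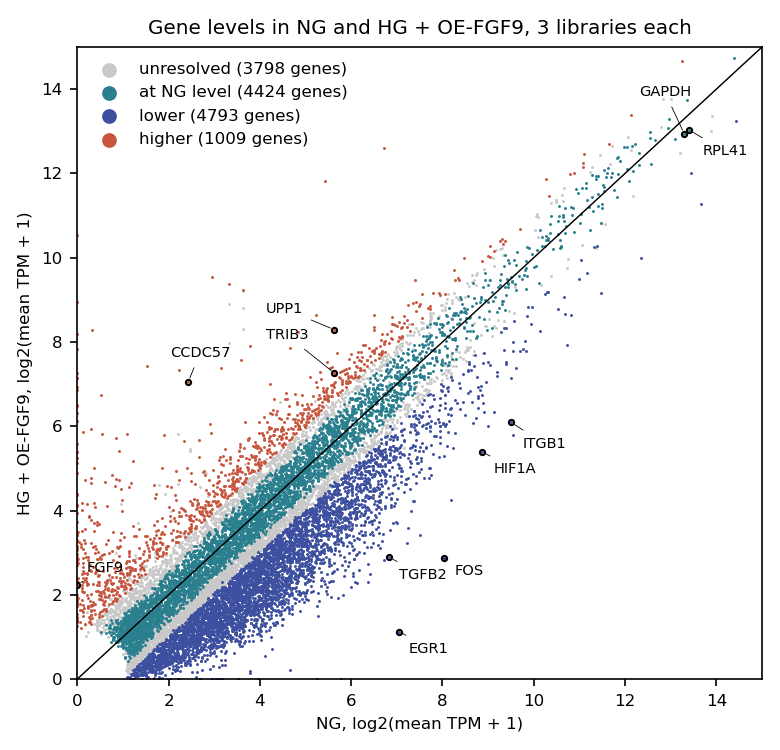
Each point is 1 of the 14024 genes tested, with log2(mean TPM + 1) over the 3 NG libraries on the x axis and over the 3 HG + OE-FGF9 libraries on the y axis. Colours give the class of the gene, the line marks equal levels, and 4793 genes lie below it as lower against 1009 above it as higher.

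The balance of lower and higher genes depended on how the libraries were scaled. The median log2 fold change over all genes was -0.55 on the deposited TPM, and 0.02 after median-of-ratios scaling, under which 2427 genes (17.3%) were lower and 2642 (18.8%) higher. Quantile normalization gave 2492 lower and 2328 higher genes, and correction for GC content 1612 (11.8%) and 1569 (11.5%). The difference followed base composition across genes, with a Spearman's rho of 0.59 between exonic GC content and log2 fold change over 13632 genes. That is a description across genes of the same libraries, and genes are not independent replicates. When genes were cut into 10 groups of equal size by GC content, 74.7% of the group lowest in GC were lower, with a median log2 fold change of -1.61, against 3.59% of the group highest in GC, with a median of 0.36. Genes at NG level had a median GC content of 53.3%, close to the 57% of the higher genes and above the 41.9% of the lower genes. Under all 5 scalings (the deposited TPM, median of ratios, quantile, GC content, and GC content with length), 723 genes were lower, 526 were higher and 1213 were at NG level. Genes named below are described on the deposited TPM. Of those called, B2M, C4orf48, CHAC1, FGF2, FGFR1, GADD45G, IRF7, ISG15, PAX8, PTPN11, RPL36, S100A4, SNORA73B, TGFBR1, TJP1 and TNFRSF12A missed the call under at least 1 of the other 4 scalings, with no change of sign. Of those at NG level, CASK, CLU, FTH1, KLF2 and MT-CO2 were called higher, and COL6A2 lower, under 1 of them. TPM are shares of a bulk library, so that fewer cells of a type and less RNA of a gene per cell cannot be told apart.

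**Figure D2:**
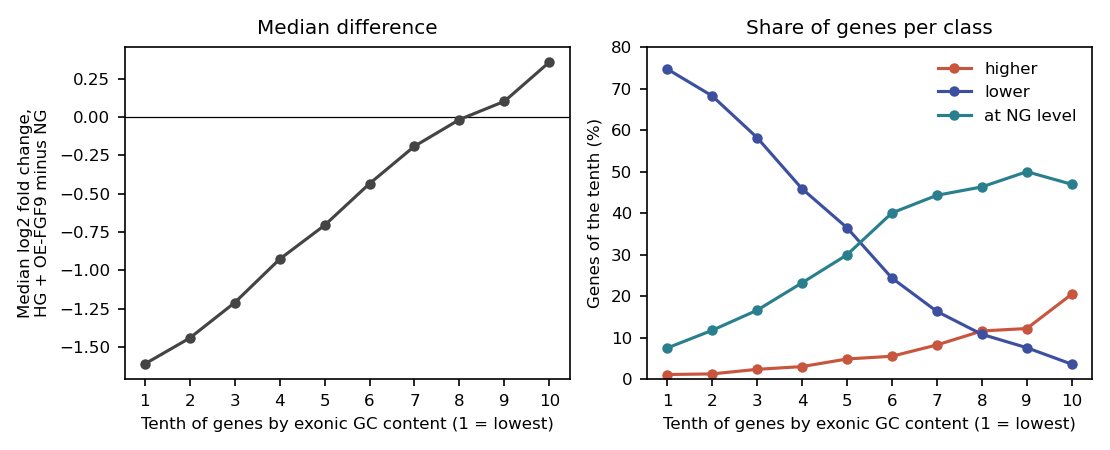
Genes were ranked by the GC content of their exons and cut into 10 groups of about equal size, shown on both x axes from lowest to highest. The left panel shows the median log2 fold change, which runs from -1.61 to 0.36, and the right panel the percentage of genes that were higher, lower or at NG level.

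FGF9 itself separated the groups without overlap. It was listed at 0 TPM in each of the 3 NG libraries and in each of the 3 HG libraries, and at 3.34, 4.03 and 3.82 TPM in the 3 HG + OE-FGF9 libraries, so that no fold change is given for it. Its level with the vector was low in absolute terms, below that of FGF2, a related ligand that is widely made by cultured cells. FGF2 was at 51.5, 53 and 46.6 TPM in NG, 10.3, 6.06 and 30.8 in HG and 10.3, 10.3 and 13.3 in HG + OE-FGF9 (log2 fold change -2.07 ± 0.40 SE, adjusted p = 7.14e-04). With correction for GC content its log2 fold change was -0.58, and it was not called lower.

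No FGF receptor gene tested was at NG level. FGFR2, a tyrosine kinase receptor of which some splice forms bind FGF9, was at 10.1, 9.64 and 8.37 TPM in NG and at 1.49, 1.6 and 2.02 in HG + OE-FGF9. It fell by 1.94 on the log2 scale (0.22 SE, adjusted p = 3.03e-05), a call made under all 5 scalings. The HG libraries, at 5.4, 2.74 and 4.24 TPM, lay between these groups. FGFR1, given for its role and not by the rule for named genes, was at 13.9, 15.7 and 16.6 TPM in NG and 4.79, 5.53 and 7.35 in HG + OE-FGF9 (log2 fold change -1.27 ± 0.18 SE, adjusted p = 1.02e-04). It was not called lower after median-of-ratios scaling, at -0.62. FGFR3, a main receptor of FGF9 and also given for its role, was at 4.62, 5.56 and 4.92 TPM in NG, 4.73, 4.57 and 4.81 in HG and 1.95, 2.03 and 2.59 in HG + OE-FGF9. Its HG + OE-FGF9 libraries lay below all NG and HG libraries, but the log2 fold change of -0.92, with a 95% interval from -1.28 to -0.57, left it unresolved, as FGFR4 was, although without HG + OE-FGF9 library 3 it was called lower. Of the 19 ligands, receptors, co-receptors and adaptors tested, 8 were lower, beside 34.2% of all genes, 5 were at NG level and FGF9 alone was higher. The lower members also included PTPN11, a phosphatase that relays receptor signals, at 53.6, 54.5 and 50.9 TPM in NG and 8.27, 7.97 and 15.5 in HG + OE-FGF9 (adjusted p = 2.62e-04). Adaptors and heparan sulfate carriers were among those at NG level. GRB2, which links receptors to RAS, was at 26.4, 32.3 and 30.6 TPM in NG and 30.3, 32.1 and 31.6 in HG + OE-FGF9, with a log2 fold change of 0.08 and a 95% interval from -0.23 to 0.38. SDC1, a heparan sulfate proteoglycan, was at 54.3, 59.2 and 61.1 TPM in NG and 53.3, 52.7 and 62.4 in HG + OE-FGF9 (interval from -0.35 to 0.24) and stayed at NG level under all 5 scalings.

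Feedback inhibitors of ERK signalling, which rise with pathway activity in many cells, were not called above NG on the deposited TPM. Of 17 feedback and target genes tested, 0 were higher, 9 were lower and 5 were at NG level, with a median log2 fold change of -1.42 beside -0.55 over all genes. Median-of-ratios scaling left 4 lower and put 2 above NG. DUSP6, the phosphatase that inactivates ERK, was at 27.8, 23.6 and 20.8 TPM in NG, 5.39, 3.34 and 3.52 in HG and 2.56, 2.42 and 5.45 in HG + OE-FGF9, a fall of 2.54 on the log2 scale (0.29 SE, adjusted p = 3.30e-05). All 3 HG libraries and all 3 HG + OE-FGF9 libraries lay far below the NG libraries. SPRY2, a Sprouty inhibitor, fell by 1.90 on the log2 scale (0.32 SE, adjusted p = 2.77e-04), and both genes were lower under all 5 scalings. CCND1, which encodes cyclin D1, was at 36, 39.4 and 38 TPM in NG and 28.2, 28.1 and 24.8 in HG + OE-FGF9 and was at NG level under all 5 scalings, but unresolved with the near-identical libraries averaged.

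Immediate early genes held the 2 largest falls among the protein-coding genes with a mean TPM of at least 10. Most of them encode transcription factors that cells make within minutes of a growth signal, before any new protein is needed. EGR1, a zinc finger factor, was at 130.4, 134 and 133 TPM in NG, at 0.74, 0.85 and 0.25 in HG and at 1.18, 1.19 and 1.18 in HG + OE-FGF9. The NG libraries agreed closely and stood far above the other 6 libraries, which did not overlap with them. The log2 fold change of HG + OE-FGF9 against NG was -5.93 ± 0.20 SE (adjusted p = 8.60e-09). FOS, a subunit of the AP-1 factor, was at 276, 252 and 251 TPM in NG, 1.1, 0.53 and 6.89 in HG and 7.17, 7.17 and 4.55 in HG + OE-FGF9, with a log2 fold change of -5.18 ± 0.47 SE (adjusted p = 1.45e-05). FOSB, its close relative, was at 79, 52.9 and 55.8 TPM in NG, 0.5, 0.74 and 1.11 in HG and 3.92, 4.03 and 2.7 in HG + OE-FGF9 (log2 fold change -3.80 ± 0.22 SE, adjusted p = 5.93e-07). These 3 genes were lower under all 5 scalings. In all, 14 of 20 members tested were lower (70% beside 34.2% of all genes) and 0 higher, and 9 were lower under all 5 scalings. At NG level stood NR4A1, a nuclear receptor, at 8.26, 8.61 and 8.75 TPM in NG and 6.17, 6.54 and 6.17 in HG + OE-FGF9, and SRF, at 8.13, 10.4 and 10.3 TPM in NG and 8.97, 8.79 and 11 in HG + OE-FGF9. So did KLF2, a zinc finger factor, at 2.28, 1.86 and 3.49 TPM in NG and 3.84, 4.42 and 2.52 in HG + OE-FGF9. With the near-identical libraries averaged NR4A1 was unresolved. SRF is the factor that binds CArG boxes in the promoters of such genes.

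The promoter of EGR1 is shown because EGR1 had the largest fall of all genes tested. It is given from 250 bases before up to the start of transcription, at chr5:138465229-138465478 on the plus strand of GRCh38.p14 from RefSeq, with matches to the CArG box in capitals:
EGR1: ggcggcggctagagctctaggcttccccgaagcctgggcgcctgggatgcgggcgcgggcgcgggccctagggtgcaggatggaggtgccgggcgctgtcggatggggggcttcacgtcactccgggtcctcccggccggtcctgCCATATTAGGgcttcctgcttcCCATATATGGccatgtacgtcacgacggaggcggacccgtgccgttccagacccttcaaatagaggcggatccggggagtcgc
It holds 2 matches. A search for the box by its name, which reads the same on both strands, over the 35116 RefSeq promoters of 300 bases each found it in 1.29%. Among the 17 immediate early genes of the list with a promoter in the table it was found for EGR1, EGR2 and SRF, which were lower, unresolved and at NG level. A match describes the letters of the window and is not evidence of binding.

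The 5 genes that the study put in its core panel, which it chose on these libraries, all remained far below NG. TGFB2, a ligand of the TGF-beta family, was at 118, 115 and 108 TPM in NG, 23.1, 14 and 25 in HG and 4.88, 5 and 9.29 in HG + OE-FGF9 (log2 fold change -4.00 ± 0.32 SE, adjusted p = 8.79e-06). HIF1A, the oxygen-regulated subunit of hypoxia-inducible factor 1, was at 517, 472 and 416 TPM in NG, 78.3, 37.2 and 216 in HG and 29.7, 30.4 and 62.6 in HG + OE-FGF9 (log2 fold change -3.57 ± 0.50 SE, adjusted p = 8.61e-05). For both genes every HG + OE-FGF9 library lay below every NG library, and for HIF1A the HG libraries varied widely and overlapped with HG + OE-FGF9. ITGB1, the integrin beta 1 subunit shared by many matrix receptors, was at 801, 707 and 656 TPM in NG and 43.8, 44.5 and 114 in HG + OE-FGF9 (log2 fold change -3.55 ± 0.45 SE, adjusted p = 5.34e-05). THBS1, thrombospondin 1, an activator of latent TGF-beta, was at 103, 103 and 104 TPM in NG and 7.38, 7.98 and 14.2 in HG + OE-FGF9 (log2 fold change -3.32 ± 0.30 SE, adjusted p = 1.41e-05). LOX, the enzyme that cross-links collagen and elastin, was at 182, 169 and 157 TPM in NG, 70.7, 54.3 and 48.2 in HG and 26.4, 21.9 and 23.8 in HG + OE-FGF9 (log2 fold change -2.77 ± 0.16 SE, adjusted p = 5.61e-07). The HG + OE-FGF9 libraries of LOX agreed closely, with library 3 inside the range of the others. All 5 were lower under all 5 scalings, and the smallest fall with correction for GC content was -1.39 for LOX. Since the panel was chosen for its behaviour in these samples, its count is no independent evidence of a direction. The same limit holds where its members are counted in the lists below, as TGFB2 is in the TGF-beta pathway.

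**Figure D3:**
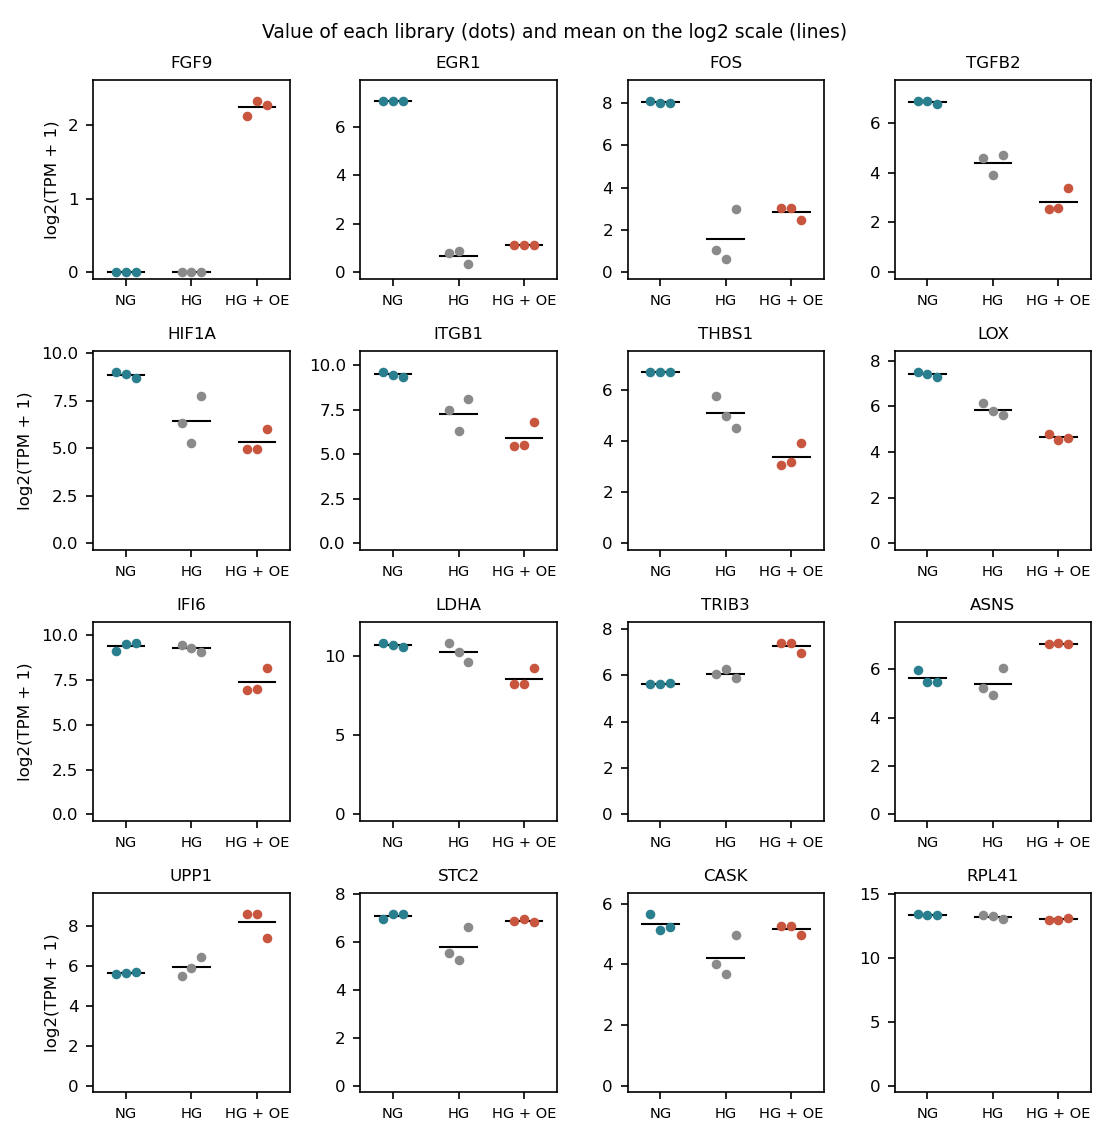
Dots give log2(TPM + 1) of each of the 3 libraries of NG, HG and HG + OE-FGF9 (HG + OE) for 16 genes, in replicate order from left to right, and lines give the mean on that scale, with a y axis that starts near 0 and differs between panels. EGR1 and FOS lie far below NG in both high glucose groups, TRIB3, ASNS and UPP1 lie highest in HG + OE, and STC2, CASK and RPL41 lie at NG level in HG + OE.

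Matrix genes were mostly below NG on the deposited TPM. Of 27 collagens, laminins and other matrix components tested, 22 were lower (81.5% beside 34.2% of all genes), 0 were higher and 5 were at NG level, and the median log2 fold change was -1.73 beside -0.55 over all genes. It was -1.64 with correction for GC content, when 23 were lower, and -1.04 after median-of-ratios scaling, when 14 were lower. COL8A1, a short-chain collagen, was at 50.6, 44.4 and 42.3 TPM in NG, 23.9, 15.8 and 19.8 in HG and 2.17, 1.92 and 7.96 in HG + OE-FGF9 (log2 fold change -3.42 ± 0.35 SE, adjusted p = 2.15e-05). The basement membrane linker NID1 was at 67.3, 62.5 and 61.8 TPM in NG and 5.3, 5.63 and 12.8 in HG + OE-FGF9 (adjusted p = 1.95e-05). FN1, fibronectin, among the most abundant transcripts of the NG cells, was at 6149, 4745 and 4664 TPM in NG, 2661, 1590.4 and 3443 in HG and 560.0, 567 and 1942 in HG + OE-FGF9 (log2 fold change -2.59 ± 0.41 SE, adjusted p = 1.82e-04). In FN1 the third HG + OE-FGF9 library was more than 3 times as high as the other two and still below all NG libraries. The members at NG level included COL6A2, a chain of the microfibril collagen VI, at 118, 136 and 143 TPM in NG and 79.2, 79.4 and 108 in HG + OE-FGF9. COL7A1, the anchoring fibril collagen, was at 117, 121 and 119 TPM in NG and 75.7, 72.3 and 112 in HG + OE-FGF9. LAMB2, a laminin of mature basement membrane, was at 147, 149 and 158 TPM in NG and 105, 107 and 127 in HG + OE-FGF9. Their log2 fold changes were -0.58, -0.48 and -0.42 on the deposited scale, -1.05, -0.88 and -0.63 with correction for GC content, and above 0 after median-of-ratios scaling.

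Enzymes that modify, cut and bind the matrix divided by member. PLOD2, which hydroxylates collagen lysines, was at 333, 284 and 261 TPM in NG, 120.3, 57.8 and 83.9 in HG and 11, 11.6 and 31.1 in HG + OE-FGF9 (log2 fold change -4.11 ± 0.37 SE, adjusted p = 1.41e-05). Its relative PLOD1 was at 134, 172 and 173 TPM in NG and 98.2, 97.9 and 121 in HG + OE-FGF9 and stood at NG level under all 5 scalings. Over the lysyl oxidases and collagen hydroxylases, 4 of 12 were lower on the deposited TPM, 33.3% and so near the 34.2% of all genes, and 7 were at NG level. With GC correction 4 were lower as well, beside 11.8% of all genes. Under all 5 scalings 4 of the 12 were lower, beside 723 of all 14024 genes. MMP7, a secreted protease of injured tubules, was at 171, 138 and 134 TPM in NG, 78.6, 43.5 and 24.4 in HG and 5.06, 5.95 and 14.1 in HG + OE-FGF9 (log2 fold change -4.10 ± 0.39 SE, adjusted p = 1.68e-05). The cell surface protease ADAM10 was at 95.2, 104 and 95.8 TPM in NG and 5.21, 6.88 and 10.7 in HG + OE-FGF9 (adjusted p = 1.48e-05). Metalloproteinases and their inhibitors were lower in 11 of 16 (68.8%), in 6, with 1 higher, after median-of-ratios scaling, in 8 with GC correction and in 5 under all 5 scalings. Integrins were lower in 8 of 14 (57.1%), in 6 and 5 with those 2 scalings and in 3 under all 5. Among them was ITGAV, which pairs with several beta subunits and can free TGF-beta, at 113, 100.2 and 89.8 TPM in NG and 6.46, 6.3 and 13.2 in HG + OE-FGF9 (log2 fold change -3.47 ± 0.34 SE, adjusted p = 1.81e-05). ITGA3, the epithelial laminin receptor subunit, was at 295, 331 and 336 TPM in NG and 205, 208 and 303 in HG + OE-FGF9 and stood at NG level under all 5 scalings. VCAN, a large matrix proteoglycan, was among the 10 largest falls of the comparison, at 68.8, 69.9 and 66.8 TPM in NG and 1.85, 1.64 and 8 in HG + OE-FGF9 (adjusted p = 2.25e-05).

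The TGF-beta pathway and the targets of the YAP coactivator, which responds to cell shape and tension, were lower in most members on the deposited TPM. Of 21 TGF-beta pathway genes tested, 13 were lower (61.9% beside 34.2% of all genes) and 0 higher, 10 were lower after median-of-ratios scaling and 8 with GC correction, and 2, TGFB2 and TGFBR2, under all 5 scalings. TGFB1, the ligand most often studied in renal fibrosis, was instead at NG level, at 69.5, 81.3 and 84.7 TPM in NG, 97.1, 115 and 89.2 in HG and 93.4, 92.2 and 88.7 in HG + OE-FGF9 (log2 fold change 0.22, 95% interval from -0.06 to 0.51). The type I receptor TGFBR1 was at 21.8, 20.6 and 19.9 TPM in NG and 2.28, 2.37 and 4.45 in HG + OE-FGF9 (log2 fold change -2.47 ± 0.26 SE, adjusted p = 2.53e-05). YAP targets were lower in 11 of 14 members (78.6%) and higher in 0, with 6 lower under all 5 scalings. CCN2, connective tissue growth factor, was at 173, 145 and 146 TPM in NG, 57.6, 41.4 and 28.2 in HG and 17, 17.5 and 30.8 in HG + OE-FGF9 (log2 fold change -2.82 ± 0.27 SE, adjusted p = 1.64e-05). F3, tissue factor, was at 54.4, 51.6 and 47.7 TPM in NG, 41.1, 24.2 and 6.63 in HG and 1.59, 1.84 and 5 in HG + OE-FGF9 (adjusted p = 5.66e-05), and its HG libraries ranged from near the NG level to near that of HG + OE-FGF9.

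Mesenchymal genes were lower in 9 of 15 members (60% beside 34.2% of all genes) and higher in 1, and 3 were lower after median-of-ratios scaling and 5 with GC correction. COL1A1 and LUM, the fibroblast markers tested, were lower on the deposited TPM. Of these 2, 1 was lower after median-of-ratios scaling, 1 with GC correction and 0 under all 5 scalings. CDH2, N-cadherin, was at 88.6, 91.6 and 87.2 TPM in NG, 34.4, 21.7 and 35.4 in HG and 15.1, 17.1 and 30.5 in HG + OE-FGF9 (log2 fold change -2.10 ± 0.25 SE, adjusted p = 3.87e-05). The smooth muscle actin gene ACTA2 was low and at NG level, at 3.54, 3.6 and 3.45 TPM in NG and 2.58, 3.73 and 2.7 in HG + OE-FGF9. The repressor SNAI1 was likewise at NG level at 15.8, 17.1 and 17.7 TPM in NG and 21.3, 20.9 and 17.1 in HG + OE-FGF9. S100A4, a calcium-binding protein used as a fibroblast marker, was higher, at 6.9, 5.51 and 6.89 TPM in NG, 14.8, 14.1 and 20.1 in HG and 21.4, 20.8 and 17.7 in HG + OE-FGF9 (adjusted p = 6.01e-05). On the epithelial side, 7 of 20 junction and keratin genes were lower, a share of 35% beside 34.2% of all genes, and 6 were at NG level. GC correction put 6 of the 20 below NG, beside 11.8% of all genes, and median of ratios 5, beside 17.3%. Each put 1 above it. Epithelial and mesenchymal median log2 fold changes were -0.74 and -0.57 with GC correction, and -0.07 and -0.49 with median of ratios. The gap between these lists in the share of lower genes thus depended on the scaling. CDH1, E-cadherin, missed the TPM minimum, with at most 0.28 TPM in NG and 0.2 in HG + OE-FGF9. The junction scaffold TJP1 was at 15.5, 17.1 and 16.1 TPM in NG and 2.83, 2.12 and 3.96 in HG + OE-FGF9 (adjusted p = 2.97e-05). The keratins KRT8 and KRT7 and the tight junction gene CLDN4 were at NG level, with log2 fold changes of -0.13, 0.25 and 0.14.

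Targets of hypoxia-inducible factors were mostly lower, as HIF1A was, and glycolytic enzymes divided by member. Of 20 targets tested, 16 were lower (80% beside 34.2% of all genes), 0 higher and 1 at NG level, with a median log2 fold change of -1.83 (-1.17 after median-of-ratios scaling and -1.21 with correction for GC content, when 11 and 12 were lower). NDRG1, a stress-induced protein, was at 422, 424 and 425 TPM in NG, 226, 152 and 63.9 in HG and 67.9, 62.4 and 88 in HG + OE-FGF9 (log2 fold change -2.54 ± 0.33 SE, adjusted p = 5.87e-05). PFKFB4, which tunes the rate of glycolysis, was at 13.9, 15.6 and 15.2 TPM in NG, 24.1, 23.5 and 3.21 in HG and 1.48, 1.64 and 2.3 in HG + OE-FGF9 (adjusted p = 0.00107). HG libraries 1 and 2 of PFKFB4 were above every NG library and HG library 3 near the HG + OE-FGF9 level. LDHA, which reduces pyruvate to lactate, was at 1776, 1623 and 1544 TPM in NG, 1823, 1197 and 786 in HG and 296, 295 and 613 in HG + OE-FGF9 (log2 fold change -2.12 ± 0.30 SE, adjusted p = 9.14e-05). Hexokinase 2, whose gene shares the name HK2 with the cell line, fell by 2.53 on the log2 scale (0.22 SE, adjusted p = 1.10e-05). Of 16 glycolytic genes 4 were lower, 25% beside 34.2% of all genes on the deposited TPM, and 7 were at NG level. Among those was TPI1, at 1486, 1443 and 1476 TPM in NG and 1505, 1502 and 1524 in HG + OE-FGF9. LDHB was another, at 1079, 828 and 791 TPM in NG and 781, 806 and 905 in HG + OE-FGF9. LDHB was at NG level under all 5 scalings, and the median of the glycolytic list, -0.49, changed sign to 0.22 after median-of-ratios scaling. Of the 16 glycolytic genes 3 were lower after that scaling, when 17.3% of all genes were. With GC correction 3 were lower too, when 11.8% of all genes were.

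Genes that respond to glucose and to osmotic load were not called above NG on the deposited TPM. TXNIP, an arrestin-like protein that glucose induces through the factors MLX and MLXIP, was at 1833, 1832 and 1732 TPM in NG, 483, 334 and 976 in HG and 303, 307 and 587 in HG + OE-FGF9 (log2 fold change -2.24 ± 0.33 SE, adjusted p = 1.20e-04). Its relative ARRDC3 was at 53.3, 49.2 and 41.3 TPM in NG and 5.12, 5.05 and 7.15 in HG + OE-FGF9 (adjusted p = 1.48e-05). Of 12 genes of glucose sensing 7 were lower (58.3% beside 34.2% of all genes), 0 higher and 5 at NG level, with 4 lower under all 5 scalings. The inducing factors were at NG level, with MLX at 21.2, 22.1 and 21.8 TPM in NG and 15.4, 14.2 and 16.5 in HG + OE-FGF9, and MLXIP at 11.9, 13.4 and 14.5 TPM in NG and 14.5, 15.4 and 10.5 in HG + OE-FGF9. SLC5A3, the inositol transporter that hypertonic medium induces, was at 14.6, 15.8 and 15.3 TPM in NG, 3.09, 1.77 and 5.88 in HG and 0.69, 0.69 and 1.75 in HG + OE-FGF9 (log2 fold change -3.03 ± 0.31 SE, adjusted p = 2.15e-05). Of 10 osmolyte and polyol genes tested, 6 were lower (60%) and 0 higher. These became 5 and 2 after median-of-ratios scaling, and with GC correction 3 were lower.

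Markers of tubular injury differed by member. HAVCR1, the injury marker KIM-1, was at 76.5, 88.4 and 81.2 TPM in NG, 17.3, 9.68 and 18.7 in HG and 2.52, 2.55 and 6.74 in HG + OE-FGF9 (log2 fold change -4.17 ± 0.32 SE, adjusted p = 6.39e-06), the largest fall of the list. SPP1, osteopontin, was at 1891, 1623 and 1609 TPM in NG, 634, 347 and 969 in HG and 194, 187 and 346 in HG + OE-FGF9 (adjusted p = 3.37e-05). The injury markers LCN2 and CLU stood at NG level, LCN2 at 206, 158 and 168 TPM in NG and 219.8, 219 and 189.9 in HG + OE-FGF9 and CLU at 168, 157 and 127 TPM in NG and 184, 192 and 194 in HG + OE-FGF9. TNFRSF12A, a receptor of the cytokine TWEAK, was higher at 80.8, 105 and 117 TPM in NG and 226, 224 and 206 in HG + OE-FGF9 (log2 fold change 1.13 ± 0.15 SE, adjusted p = 7.33e-05). In this list of 7 genes 3 were lower (42.9% beside 34.2% of all genes), 3 at NG level and 1 higher (14.3% beside 7.19%). The only one higher, TNFRSF12A, was not called with correction for GC content or, at 0.98, without NG library 1. Of 24 proximal tubule identity genes 10 reached the TPM minimum, of which 6 were lower (60% beside 34.2% of all genes). Lower genes numbered 3 after median-of-ratios scaling, when 17.3% of all genes were lower, and 1 under all 5 scalings. The nephron transcription factor PAX8 was at 79.1, 78.1 and 78.3 TPM in NG, 67.8, 60.9 and 63.5 in HG and 19.7, 21.3 and 38 in HG + OE-FGF9 (log2 fold change -1.60 ± 0.20 SE, adjusted p = 5.24e-05, and -0.90, not called, after median-of-ratios scaling). The brush border enzyme GGT1 was at NG level at 71.7, 83.8 and 80.8 TPM in NG and 83.3, 86.3 and 81.7 in HG + OE-FGF9.

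**Figure D4:**
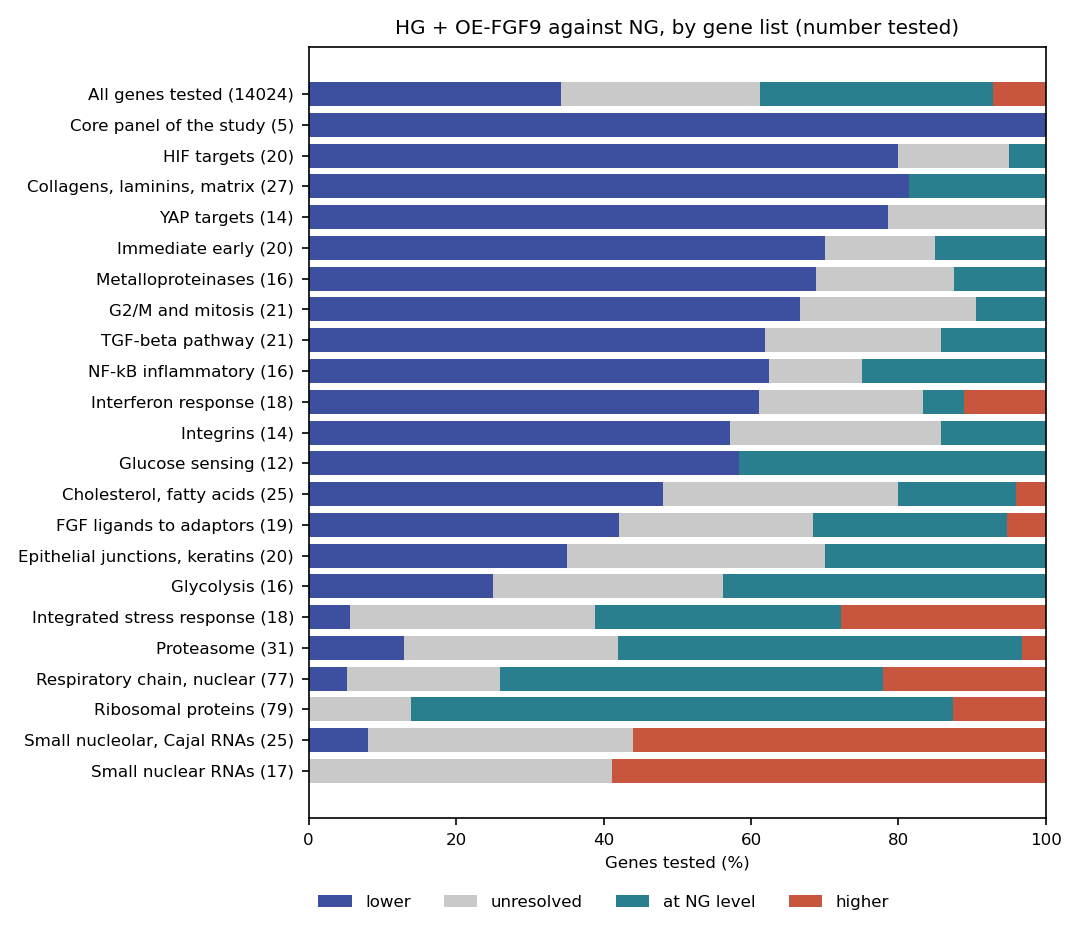
Each bar divides the tested genes of a list into lower, unresolved, at NG level and higher in HG + OE-FGF9 against NG, as percentages on the x axis, with the number tested in brackets and all 14024 genes in the top bar. Lists of matrix, hypoxia, YAP and immediate early genes are mostly lower, ribosomal proteins mostly at NG level, and small nuclear RNAs mostly higher.

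Interferon and inflammatory genes were mostly lower on the deposited TPM, with a pair of exceptions among the interferon genes. With GC correction a smaller part of each list was lower, beside 11.8% of all genes under that correction. Of 18 interferon response genes tested, 11 were lower (61.1% beside 34.2% of all genes) and 2 higher on the deposited TPM, and 7 lower and 0 higher with correction for GC content. IFI6, an interferon-induced protein of the endoplasmic reticulum, was at 555, 704 and 748 TPM in NG, 678, 615 and 526 in HG and 122, 123 and 286 in HG + OE-FGF9 (log2 fold change -2.02 ± 0.27 SE, adjusted p = 6.37e-05). HG libraries of IFI6 overlapped with NG, and HG + OE-FGF9 libraries did not. ISG15, a ubiquitin-like protein that interferon induces, was higher, at 143, 201 and 212 TPM in NG, 519.6, 740.0 and 369.6 in HG and 379, 377 and 388 in HG + OE-FGF9 (log2 fold change 1.06 ± 0.22 SE, adjusted p = 0.00101). IRF7, an interferon regulatory factor, was also higher at 6.02, 10.7 and 11.5 TPM in NG and 23, 22.1 and 16.3 in HG + OE-FGF9 (adjusted p = 0.00208). Neither was called with correction for GC content, at 0.72 and 0.59, or without NG library 1, at 0.88 and 0.81. BST2, tetherin, was the member at NG level, at 675, 588 and 621 TPM in NG and 439, 439 and 552 in HG + OE-FGF9. Among 16 NF-kappaB-linked inflammatory genes 10 were lower (62.5%) and 4 at NG level. Lower genes numbered 5, beside 2 higher, after median-of-ratios scaling, 7 were lower with GC correction, and 3 were lower under all 5 scalings. The cytokine gene IL6 was at 167, 142 and 143 TPM in NG, 101, 77.2 and 34.5 in HG and 18.8, 20 and 40.6 in HG + OE-FGF9 (log2 fold change -2.55 ± 0.36 SE, adjusted p = 9.17e-05). The growth factor gene CSF2 was at NG level under all 5 scalings at 66.1, 57.3 and 67.2 TPM in NG and 54.4, 49 and 73.6 in HG + OE-FGF9.

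The promoters of IFI6 and ISG15 are shown because both hold the letters of an interferon-stimulated response element and the genes lay on opposite sides of NG. The windows reach 60 bases beyond the outermost match where the promoter allows it, at chr1:27672216-27672408 on the minus strand for IFI6 and chr1:1013324-1013459 on the plus strand for ISG15 in GRCh38.p14 (RefSeq), and capitals mark matches, on either strand, to GAAA, any 2 bases and again GAAA:
IFI6: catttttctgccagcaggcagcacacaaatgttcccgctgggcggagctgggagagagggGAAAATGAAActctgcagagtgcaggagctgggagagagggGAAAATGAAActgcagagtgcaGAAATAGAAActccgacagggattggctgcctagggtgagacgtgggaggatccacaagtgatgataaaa
ISG15: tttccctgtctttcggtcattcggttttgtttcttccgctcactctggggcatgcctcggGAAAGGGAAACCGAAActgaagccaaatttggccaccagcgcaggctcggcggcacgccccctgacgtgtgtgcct
IFI6 holds 3 matches and ISG15 2, which overlap. The motif was found in 3.57% of all 35116 promoters and in those of 9 of the 14 interferon genes with a promoter in the table, of which 6 were lower and 1 higher.

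Several genes of the integrated stress response were higher than in NG. This pathway raises translation of the factor ATF4, which in turn induces genes for amino acid synthesis and uptake. Of 18 members tested 5 were higher, 27.8% beside 7.19% of all genes, 1 was lower and 6 were at NG level, and 4 were higher under all 5 scalings. TRIB3, a pseudokinase that ATF4 induces, was at 47.7, 48.9 and 49.5 TPM in NG, 64.6, 75.2 and 58.5 in HG and 167, 167 and 122 in HG + OE-FGF9 (log2 fold change 1.61 ± 0.19 SE, adjusted p = 3.79e-05). ASNS, asparagine synthetase, was at 60.7, 43.1 and 43.5 TPM in NG, 36.1, 29.3 and 65.9 in HG and 132, 135 and 129 in HG + OE-FGF9 (log2 fold change 1.43 ± 0.24 SE, adjusted p = 3.03e-04). The HG + OE-FGF9 libraries of ASNS agreed within a few TPM, and both HG and NG libraries lay below them. SLC3A2, the heavy chain of amino acid transporters, was at 95.1, 89.2 and 85.5 TPM in NG, 65.1, 59.5 and 99.7 in HG and 242, 236 and 195 in HG + OE-FGF9 (log2 fold change 1.30 ± 0.18 SE, adjusted p = 7.79e-05). PHGDH, an enzyme of serine synthesis, and CHAC1, which degrades glutathione, were the other members called higher and lie outside the rule for named genes. PHGDH was at 88.4, 84.7 and 98.8 TPM in NG and 184, 182 and 204 in HG + OE-FGF9 (adjusted p = 2.34e-04). CHAC1 was at 1.91, 1.03 and 2.34 TPM in NG and 4.55, 5.64 and 4.76 in HG + OE-FGF9 (adjusted p = 0.0104), and lost its call with the near-identical libraries averaged or without any single library but NG 3. ATF4 itself was at NG level under all 5 scalings, at 307, 311 and 309 TPM in NG and 264, 255 and 298 in HG + OE-FGF9. VLDLR, a lipoprotein receptor that ATF4 can induce, was the member that fell, at 139.7, 113 and 111 TPM in NG and 12.3, 13.5 and 23.3 in HG + OE-FGF9 (adjusted p = 1.02e-05).

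The promoters of ASNS and CHAC1 are shown because they hold the letters of a C/EBP-ATF response element, and both genes were called higher. Capitals mark matches to TGATGNAA on either strand in windows at chr7:97872409-97872536 on the minus strand for ASNS and chr15:40953221-40953329 on the plus strand for CHAC1 in GRCh38.p14 (RefSeq):
ASNS: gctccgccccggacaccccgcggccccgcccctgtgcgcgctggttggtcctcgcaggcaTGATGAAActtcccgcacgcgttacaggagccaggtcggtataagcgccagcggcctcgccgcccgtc
CHAC1: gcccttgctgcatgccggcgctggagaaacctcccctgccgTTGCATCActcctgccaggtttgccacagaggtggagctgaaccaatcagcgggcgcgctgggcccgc
The motif was found in 3.62% of all 35116 promoters. In the stress response list 4 of 16 genes with a promoter in the table held it, namely ASNS, CHAC1, SLC3A2 and ATF3, of which the first 3 were higher and ATF3 was unresolved.

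Other stress and lipid programmes were mixed. In the unfolded protein response 7 of 18 genes were lower (38.9% beside 34.2% of all genes) and 2 higher, which became 4 and 3 after median-of-ratios scaling and 1 and 1 with GC correction. The chaperone HSP90B1 was at 3595, 2539.9 and 2370.4 TPM in NG, 770.4, 454 and 1501 in HG and 518, 521 and 686 in HG + OE-FGF9 (log2 fold change -2.29 ± 0.38 SE, adjusted p = 2.40e-04). CRELD2, a secreted factor induced by stress of the endoplasmic reticulum, was instead higher at 21, 18.4 and 20.2 TPM in NG, 27.8, 32.8 and 18.5 in HG and 66.5, 66.3 and 47 in HG + OE-FGF9 (log2 fold change 1.53 ± 0.20 SE, adjusted p = 6.72e-05). Both were called in the same direction under all 5 scalings. In cholesterol and fatty acid synthesis 12 of 25 genes were lower (48%) and 1 higher, which became 7 and 3 after median-of-ratios scaling and 10 and 1 with GC correction. HMGCS1, which opens the mevalonate pathway, was at 39.6, 39.5 and 39 TPM in NG, 6.78, 4.02 and 22.2 in HG and 2.8, 2.98 and 6.42 in HG + OE-FGF9 (log2 fold change -3.06 ± 0.45 SE, adjusted p = 1.21e-04). PMVK, a kinase further along that pathway, was instead higher, at 5.77, 5.72 and 6.36 TPM in NG, 18.9, 21.3 and 7.58 in HG and 32.1, 28.8 and 21.6 in HG + OE-FGF9 (log2 fold change 2.02 ± 0.30 SE, adjusted p = 1.19e-04). FDPS, a later enzyme, was at NG level at 117, 113 and 118 TPM in NG and 134, 139.6 and 151 in HG + OE-FGF9. Antioxidant genes were divided as well. CAT, catalase, was lower at 40.4, 31.1 and 28.2 TPM in NG and 3.12, 3.27 and 8.1 in HG + OE-FGF9 (adjusted p = 4.91e-05). The ferritin heavy chain FTH1 was at NG level at 5532, 6175 and 6134 TPM in NG and 7519, 7489.6 and 7081 in HG + OE-FGF9. Its log2 fold change of 0.31 was 1.02, and called higher, after median-of-ratios scaling. Of 20 NRF2 and antioxidant genes 6 were lower (30%), 2 higher and 9 at NG level. The balance turned with scaling, to 4 lower and 9 higher after median of ratios and 2 and 3 with GC correction. Targets of p53 were lower in 6 of 18 (33.3%) and higher in 0, which became 3 and 7 after median-of-ratios scaling and 2 and 0 with GC correction. Cytosolic heat shock genes were lower in 5 of 15 (33.3%) and higher in 0, which became 2 and 1, and 2 and 1. The lower shares of these 4 stress lists on the deposited TPM lie near that of all genes. The metallothionein MT2A, a metal-binding protein, was at 7072, 8235 and 8420.2 TPM in NG and 8893, 8763 and 8483 in HG + OE-FGF9, and 5 of 7 metallothioneins stood at NG level.

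Ribosomal protein, respiratory chain and proteasome genes stood mostly at NG level on the deposited TPM and moved above it with some scalings. Of 79 cytosolic ribosomal protein genes 58 were at NG level (73.4% beside 31.5% of all genes), 10 were higher and 0 lower, with a median log2 fold change of 0.43. The median over all genes was -0.55, and after median-of-ratios scaling 47 were higher, with a median of 1.14. With correction for GC content 35 were higher, and 8 were at NG level under all 5 scalings. Among those was RPL41, the smallest ribosomal protein, at 11115, 10605 and 10559 TPM in NG and 8162, 8093 and 8939 in HG + OE-FGF9 (95% interval of the log2 fold change from -0.60 to -0.12). RPL36 was higher, at 972, 1278 and 1431 TPM in NG, 2164, 3029.7 and 2226 in HG and 4296, 4276 and 2629 in HG + OE-FGF9 (log2 fold change 1.59 ± 0.21 SE, adjusted p = 5.84e-05). Of 19 translation factor genes 9 were at NG level and 7 lower, 36.8% beside 34.2% of all genes, but 3 were lower and 4 higher after median-of-ratios scaling. Ribosomal protein genes have many processed copies in the genome that can share reads, so single members are uncertain.

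Of 77 nuclear genes of the respiratory chain 40 were at NG level (51.9% beside 31.5% of all genes), 17 higher (22.1% beside 7.19%) and 4 lower. Higher genes numbered 47 after median-of-ratios scaling, 39 with GC correction and 9 under all 5 scalings, and lower genes 0 under each of these. Among the higher genes, ATP5F1D, a subunit of ATP synthase, was at 37.3, 52.4 and 50.3 TPM in NG, 112, 167 and 119.8 in HG and 197, 187 and 126 in HG + OE-FGF9 (log2 fold change 1.83 ± 0.21 SE, adjusted p = 3.10e-05). UQCRQ, of complex III, was at 162, 178 and 216 TPM in NG, 453, 497 and 322 in HG and 586, 590.4 and 505 in HG + OE-FGF9 (adjusted p = 2.15e-05). NDUFS5, of complex I, was at NG level under all 5 scalings at 949, 878 and 901 TPM in NG and 811, 785 and 993 in HG + OE-FGF9. Of 13 mitochondrially encoded proteins 3 were at NG level, 3 were lower (23.1%) and 1 higher (7.69%). The direction was not stable: 4 were higher and 0 lower after median-of-ratios scaling, 3 and 0 with GC correction, and 0 and 1 with the near-identical libraries averaged. MT-CO2, of complex IV, was at NG level at 22848, 20264 and 21599 TPM in NG and 26759.5, 27479.7 and 27455 in HG + OE-FGF9. Their summed TPM in the HG + OE-FGF9 libraries (120784 to 128964) overlapped with that in NG (117422 to 127076). Proteasome genes were at NG level in 17 of 31 members, lower in 4 and higher in 1, but higher in 12 and lower in 0 after median-of-ratios scaling. Genes used as reference genes were not all at NG level either. In all 8 of 16 were (50% beside 31.5% of all genes), including PPIA at 3523, 3720.2 and 3644 TPM in NG and 2409.5, 2442 and 3470.4 in HG + OE-FGF9. Of the others 5 were lower, 31.25% of the list and so near the 34.2% of all genes, and with correction for GC content 0 were lower. The 5 included B2M at 2531, 2229 and 2126 TPM in NG and 642, 657 and 1096 in HG + OE-FGF9 (adjusted p = 1.37e-04).

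Counts of cell cycle genes depended on the scaling, as those of all genes did. Of 21 genes of G2 phase and mitosis 14 were lower (66.7% beside 34.2% of all genes). With median of ratios 8 were lower and 3 higher, with GC correction 5 and 0. These 2 scalings put 17.3% and 11.8% of all genes below NG. With the near-identical libraries averaged 8 were lower, beside 4065 of all 14024 genes. CENPF, a kinetochore protein, was at 94.6, 70.2 and 66.1 TPM in NG, 19.1, 7.93 and 36.8 in HG and 2.23, 2.09 and 16.5 in HG + OE-FGF9 (log2 fold change -3.78 ± 0.61 SE, adjusted p = 2.03e-04). UBE2C, which feeds the anaphase-promoting complex, was at NG level at 282, 297 and 321 TPM in NG and 265, 275 and 435 in HG + OE-FGF9. Of 22 genes of G1/S and replication 8 were at NG level, 3 were higher (13.6% beside 7.19% of all genes) and 3 lower (13.6%), which became 6 and 1 after median-of-ratios scaling and 4 and 0 with GC correction. E2F1, the factor that drives S phase entry, had the largest rise of the list, at 8.99, 11.7 and 12 TPM in NG, 20.4, 23.2 and 29.3 in HG and 37.4, 37 and 40.2 in HG + OE-FGF9 (log2 fold change 1.73 ± 0.17 SE, adjusted p = 1.91e-05). It was higher under all 5 scalings. Of 31 replication-dependent histone genes, whose transcripts carry no poly(A) tail, 9 were higher (29% beside 7.19% of all genes), 2 lower and 14 unresolved. Another 31 of the 62 listed missed the TPM minimum, so these shares describe the genes that passed. The summed level of the whole list did not rise, at 465 to 494 TPM in NG and 260 to 473 in HG + OE-FGF9. With GC correction 4 were higher and 1 lower, and under all 5 scalings 1 and 1.

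Small nuclear and small nucleolar RNAs were far above NG in the HG + OE-FGF9 libraries. These short transcripts, most of them of the spliceosome or of RNA modification, have no poly(A) tail. Over the 42 such genes tested, the summed level was 151, 217 and 493 TPM in the NG libraries, 50.3, 129.7 and 226 in the HG libraries and 14911, 13769 and 4536 in the HG + OE-FGF9 libraries. Of the 42, 15 were listed at 0 in all 3 NG libraries. RN7SK, the RNA that holds the elongation factor P-TEFb inactive, was at 27.3, 55.6 and 42.7 TPM in NG, 24, 17.8 and 129.8 in HG and 4759, 4673 and 1462 in HG + OE-FGF9 (log2 fold change 6.28 ± 0.65 SE, adjusted p = 2.25e-05). RNU4-1, a U4 RNA, was listed at 0 in all NG and HG libraries and at 439.9, 805 and 244 TPM in HG + OE-FGF9. RNU6ATAC, of the minor spliceosome, was likewise listed at 0 in both and at 306, 255 and 123 TPM in HG + OE-FGF9, and SNORA12, a guide of pseudouridylation, also listed at 0 in both, at 186, 99.3 and 58.7 TPM. Of 17 small nuclear genes 10 were higher and 0 lower, and of 25 small nucleolar and Cajal body genes 14 were higher and 2 lower, with 7 and 12 higher under all 5 scalings. A gene of this class passed the TPM minimum through the HG + OE-FGF9 libraries alone where NG was at 0, so these shares describe the genes that passed. The lower ones were SCARNA9 and SNORA73B, the latter listed at 0 in every HG and HG + OE-FGF9 library and at 8.1, 5.12 and 9.49 TPM in NG. Copies of U1 share nearly all their sequence and carried equal values in the NG libraries, as RNU1-3 did at 7.01, 6.59 and 20.4 TPM, and ranged in HG + OE-FGF9 from 0 upward (RNU1-3 at 741, 1041 and 0 TPM), so single U1 copies are uncertain.

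**Figure D5:**
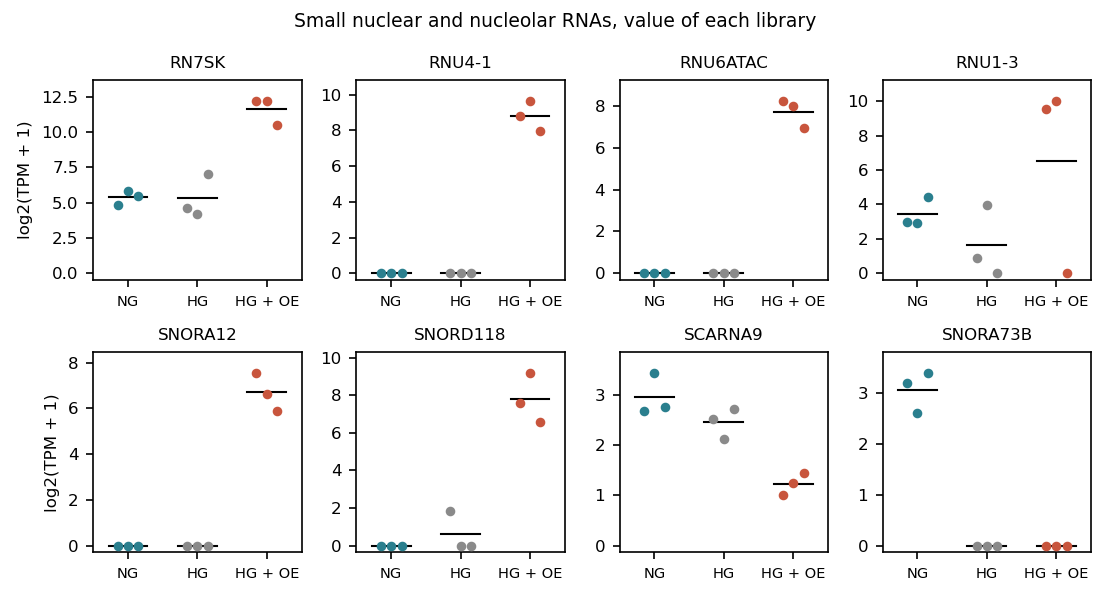
Dots give log2(TPM + 1) of each of the 3 libraries of NG, HG and HG + OE-FGF9 (HG + OE) for 8 small RNAs, in replicate order from left to right, and lines give the mean, with a y axis that differs between panels. RN7SK, RNU4-1, RNU6ATAC, SNORA12 and SNORD118 lie above NG in all HG + OE libraries, RNU1-3 in 2 of 3, and SCARNA9 and SNORA73B lie below NG.

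The 10 largest rises were taken from the protein-coding genes with a mean TPM of at least 10 over the 6 libraries and no overlap between the groups. CCDC57, a centrosomal coiled-coil protein, was at 2.62, 6.41 and 4.14 TPM in NG, 7.29, 7.97 and 3.61 in HG and 174, 174 and 46.9 in HG + OE-FGF9 (log2 fold change 4.46 ± 0.46 SE, adjusted p = 2.15e-05). PHACTR1, a regulator of actin and protein phosphatase 1, was at 0.28, 0.2 and 0.21 TPM in NG, 0.13, 0.44 and 0.24 in HG and 29.4, 32 and 11.6 in HG + OE-FGF9 (log2 fold change 4.24 ± 0.30 SE, adjusted p = 2.74e-06). SERPING1, the C1 inhibitor of the complement cascade, was at 0.44, 0.09 and 0.16 TPM in NG and 35.5, 37.8 and 6.25 in HG + OE-FGF9 (adjusted p = 3.48e-05), with library 3 well below libraries 1 and 2. PHACTR1 and SERPING1 passed the TPM minimum through the HG + OE-FGF9 libraries alone. Of all genes tested, 288 were at or above 1 TPM in all HG + OE-FGF9 libraries and below 1 in all NG libraries. Such genes could enter the comparison only as higher in HG + OE-FGF9. In the other direction, 810 genes were at or above 1 TPM in all NG libraries and below 1 in all HG + OE-FGF9 libraries. These passed the minimum through NG alone and could enter only on the lower side. SPINK1, a secreted trypsin inhibitor, was at 3.46, 1.87 and 1.25 TPM in NG and 28.5, 27.9 and 13.3 in HG + OE-FGF9 (adjusted p = 6.59e-05). CCL26, a chemokine, was at 3.66, 2.63 and 2.37 TPM in NG and 26.3, 31.1 and 11.9 in HG + OE-FGF9 (adjusted p = 3.90e-05). UPP1, uridine phosphorylase, had the highest NG level of the 10, at 46.8, 48.1 and 50.5 TPM in NG, 44, 57.6 and 86 in HG and 382, 387 and 169 in HG + OE-FGF9 (log2 fold change 2.57 ± 0.29 SE, adjusted p = 3.31e-05). HBA1, EIF3CL, C4orf48 and GADD45G completed the 10, with log2 fold changes of 3.60, 2.82, 2.57 and 2.52. HBA1 and EIF3CL have near-identical copies that can share reads, and GADD45G was not called with the near-identical libraries averaged or without any single library but NG 2 and HG + OE-FGF9 3. At the other end, EGR1, FOS, HAVCR1, PLOD2, MMP7, VCAN and TGFB2 were joined by CCNL1, a cyclin linked to splicing, at 214, 169.8 and 158 TPM in NG and 6.77, 7.56 and 14.8 in HG + OE-FGF9 (adjusted p = 3.71e-05). PNISR, a splicing-associated protein, was at 113, 102 and 96.7 TPM in NG and 3.33, 3.56 and 11.5 in HG + OE-FGF9 (adjusted p = 7.82e-05). CCDC14, a centriolar satellite protein, was at 93.8, 83.9 and 75.5 TPM in NG and 2.47, 2.34 and 9 in HG + OE-FGF9 (adjusted p = 4.73e-05).

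A small set of genes was away from NG in HG and at NG level in HG + OE-FGF9. Both comparisons use the same 3 NG libraries, so the values are set side by side as a description. In HG against NG, 23.8% of the 14024 genes were lower and 1.67% higher by the same call. Among protein-coding genes with a mean TPM of at least 10 over the 9 libraries and no overlap between HG and NG, 8 were lower in HG and at NG level in HG + OE-FGF9, and 0 were higher in HG and at NG level in HG + OE-FGF9. The shares of 23.8% and 1.67% cover all genes tested, and those within this narrower set were not counted. The 8 and the 0 therefore give no contrast between directions. STC2, a secreted glycoprotein that stress induces, was at 123, 141 and 141 TPM in NG, 45.6, 36.2 and 96.8 in HG and 117, 122 and 111 in HG + OE-FGF9. CASK, a scaffold of cell junctions, was at 49.5, 34.1 and 36.5 TPM in NG, 15.1, 11.9 and 30 in HG and 37.4, 37.6 and 30.2 in HG + OE-FGF9. PDHX, a component of the pyruvate dehydrogenase complex, was at 22, 19.6 and 19.4 TPM in NG, 8.27, 5.55 and 11.9 in HG and 18.6, 18.4 and 11.4 in HG + OE-FGF9. RNF19B, a ubiquitin ligase, was at 25.2, 25.1 and 23.6 TPM in NG, 8.53, 6.95 and 12.1 in HG and 15.7, 15.9 and 16.9 in HG + OE-FGF9. TUFT1 was at 29.6, 31.7 and 29 TPM in NG, 12.8, 11 and 16.4 in HG and 18.2, 18.8 and 20.2 in HG + OE-FGF9. For all 5 genes the third HG library lay nearer to NG than the other two. For STC2, PDHX, RNF19B and TUFT1 every HG + OE-FGF9 library lay below every NG library, although the interval of the fold change was within the 2-fold margin, and for CASK these groups overlapped. With the near-identical libraries averaged, all 5 were unresolved.

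The reverse pattern was being at NG level in HG, as 42.9% of genes were, and away from it in HG + OE-FGF9. Below NG, besides IFI6, was IFITM1, an antiviral membrane protein, at 409, 366 and 358 TPM in NG, 335, 325 and 379 in HG and 67.2, 66.3 and 193 in HG + OE-FGF9. The neuronal enolase gene ENO2 was at 293, 284 and 295 TPM in NG, 263, 236 and 164 in HG and 74.1, 70.7 and 82.6 in HG + OE-FGF9. The endocytic receptor LRP1 was at 28.8, 34.6 and 35.7 TPM in NG, 21.2, 20 and 24.4 in HG and 6.99, 7.65 and 10.4 in HG + OE-FGF9. The secreted protease HTRA1 was at 47.5, 39.4 and 41.1 TPM in NG, 45.2, 36.2 and 29.6 in HG and 7.91, 7.89 and 23.2 in HG + OE-FGF9. Against NG the log2 fold changes of these 5 genes lay between -2.02 and -1.81, and all 5 were lower under all 5 scalings. Above NG, besides UPP1 and TRIB3, was OSGIN1, an oxidative stress-induced growth inhibitor, at 6.67, 8.63 and 8.4 TPM in NG, 8.02, 9.79 and 9.18 in HG and 38.9, 37.6 and 23.5 in HG + OE-FGF9. The transcription activator CAMTA2 was at 7.57, 10.2 and 9.63 TPM in NG, 12.7, 11.6 and 12.4 in HG and 39.2, 43.8 and 25.9 in HG + OE-FGF9. SEC11C, a subunit of the signal peptidase, was at 19.6, 16.2 and 16.4 TPM in NG, 28.4, 19.5 and 22.5 in HG and 59.8, 63.5 and 55.8 in HG + OE-FGF9. These 5 were higher under all 5 scalings, with adjusted p between 2.42e-05 and 4.13e-04. For none of these genes is a test of the difference between HG and HG + OE-FGF9 reported here.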

How the data were processed

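RNA of HK2 cells was extracted with TRIzol and sequenced on a HiSeq3000, and the authors deposited TPM, rounded to 2 decimals, for 62703 human Ensembl genes in 12 libraries of 4 groups. The submitters' processing notes name Bowtie 0.12.2 and the mouse build mm8, which cannot hold for human genes, so the build, and the strand setting, stay unknown, and overlapping and antisense genes cannot be told apart. Vectors were delivered with lipofectamine. Counts and depth are not given, so no interval for counting error is printed.

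Genes that reached a TPM of 1 in 3 or more of the 6 NG and HG + OE-FGF9 libraries were tested on log2(TPM + 1), a scale that understates the change of low genes, with limma 3.58.1 in R 4.3.3. All 12 libraries entered 1 fit with group as the only term and a variance trend, and p-values were adjusted over all 14024 genes by Benjamini-Hochberg. The fit was tested on simulated data. In each library the GC correction subtracted a natural spline, with 5 degrees of freedom, of exonic GC content, known from the GENCODE annotation for 13632 genes. Alternatives were other filters, pseudocounts, thresholds, scalings, fits and left-out libraries. Averaging of near-identical libraries was chosen after seeing the data.

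The comparison and the gene lists were chosen with earlier results of these data known. Named genes were FGF9, the core panel, up to 3 members in each direction and at NG level of each list (mean TPM of at least 5 for those called), the 10 largest changes in each direction (mean TPM of at least 10), the most abundant genes at NG level, and 5 genes of each pattern set beside HG. The text gives most of these. Genes outside the rule are named as such or as list members, and the small RNAs were chosen after their values were seen. Same-numbered NG and HG + OE-FGF9 libraries did not deviate together, so the numbers were not used to pair them.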

Additional observations from a re-analysis of the deposited data

How the results depend on the processing

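The number of differentially expressed genes, 5802 as reported, fell to 3181 with correction for GC content, 3173 with that correction and the replicate block together, and 2610 with correction for GC content and length. The 1009 higher genes became 2642 after median-of-ratios scaling, 2328 after quantile normalization, 1569 with GC correction, 1564 with GC correction and the replicate block, and 664 with a TPM of at least 1 required in all 6 libraries, which tests fewer genes. The 4793 lower genes became 2427, 2492, 1612 and 1609 under the same 4 scalings in that order, and 1297 with correction for GC content and length. The 4424 genes at NG level became 6811 with GC correction, 6662 with GC correction and the replicate block, 7511 with GC content and length, 18818 with no filter on TPM, which adds genes near 0, and 1237 with a margin of 1.5-fold. The causes of the changes with scaling were not tested. With 1 library left out in turn, differentially expressed genes numbered 5262 to 6510, higher genes 882 to 1149, lower genes 4380 to 5361 and genes at NG level 3698 to 4029. The replicate block alone gave 5761 differentially expressed genes, 995 higher and 4766 lower, and 4236 at NG level. It is only a number here: deviations of same-numbered NG and HG + OE-FGF9 libraries correlated at -0.13, -0.02 and -0.19. Of 129 genes printed, 105 had the same call (higher, lower or neither) under every alternative run. CASK reversed, to a log2 fold change of 1.13 with correction for GC content and length, and ISG15, IRF7, TNFRSF12A, CHAC1 and GADD45G lost their calls without single libraries: ISG15 (0.88), IRF7 (0.81) and TNFRSF12A (0.98) without NG library 1, IRF7 also without HG + OE-FGF9 library 1 (0.99), CHAC1 without any 1 library but NG 3 (0.94 to 1.20) and GADD45G without any 1 but NG 2 and HG + OE-FGF9 3 (2.32 to 2.52). Without HG + OE-FGF9 library 3, FGFR3 and RNU1-3 were called. The depth of the libraries is unknown, so genes near the minimum TPM are the least certain.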
